A study of Homo sapiens with 6 samples.

Results

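The regions described here are AT-rich peaks from 4 lists obtained by chromatin immunoprecipitation and sequencing (ChIP-seq) of 2 proteins, 82-kDa ChAT and SATB1. A peak was taken as AT-rich if the hg38 sequence under it, on chromosomes 1 to 22 and X, had a G plus C share of 30% or less. This rule used the sequence alone and kept 2161 of 21943 peaks. The cells were SH-SY5Y, a human neuroblastoma line, which in all groups stably expressed 82-kDa ChAT and had been differentiated for 3 days with retinoic acid. They received either vehicle or 100 nM Aβ1–42 oligomers for 4 h, and 82-kDa ChAT and SATB1 were each precipitated from both treatments. The cells of a treatment came from 3 plates, but each protein and treatment gave 1 library. Replicates are therefore lacking, and treatments were not tested against each other. Both lists of a treatment were called against the same input. The number of reads behind each list is not known from the files, and the 95% intervals given below cover counting error only. Of the AT-rich peaks, 889 of 7044 came from 82-kDa ChAT after vehicle, 807 of 6290 from 82-kDa ChAT after Aβ1–42, 305 of 2792 from SATB1 after vehicle and 160 of 5817 from SATB1 after Aβ1–42.

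Matrix attachment regions are stretches of DNA that hold chromatin loops to the nuclear matrix, and they are typically rich in A and T and prone to base unpairing. SATB1 is a chromatin organizer that binds such AT-rich DNA, with a preference for sequences in which 1 strand carries no G, and 82-kDa ChAT is the nuclear form of choline acetyltransferase, the enzyme that makes acetylcholine. Attachment to the matrix was not measured in these libraries, and the regions are therefore called AT-rich peaks throughout.

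To show what AT-rich peaks look like, a few of them are printed from the hg38 reference, on the plus strand, with the longest run of A and T alone in capitals. They are peaks that SATB1 shared with 82-kDa ChAT and that had some of the highest scores of the shared peaks. The peak at chr2:85448130-85448196 lay between genes, 11.1 kb from SH2D6, and also appeared in the 82-kDa ChAT list after Aβ1–42. The peak on chromosome 5 at 147029993 lay in PPP2R2B, which encodes a regulatory subunit of a protein phosphatase, outside the transcript used for intron numbers. The next peaks lay 9.97 kb from CYTH3, 38.1 kb from the glutamate receptor gene GRIK2 and in intron 2 of CDH18, a cadherin.
chr2:85448130-85448196 (SATB1, vehicle, shared with 82-kDa ChAT): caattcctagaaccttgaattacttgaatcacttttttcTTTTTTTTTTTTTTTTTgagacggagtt
chr5:147029993-147030065 (SATB1, vehicle, shared with 82-kDa ChAT): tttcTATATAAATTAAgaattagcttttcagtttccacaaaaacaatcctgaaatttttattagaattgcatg
chr7:6282617-6282673 (SATB1, Aβ1–42, shared with 82-kDa ChAT): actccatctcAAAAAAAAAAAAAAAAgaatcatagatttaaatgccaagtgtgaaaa
chr6:100924439-100924580 (SATB1, Aβ1–42, shared with 82-kDa ChAT): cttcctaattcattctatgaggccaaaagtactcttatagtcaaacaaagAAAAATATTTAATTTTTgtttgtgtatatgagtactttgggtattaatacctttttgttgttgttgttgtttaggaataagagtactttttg
chr5:19914468-19914603 (SATB1, Aβ1–42, shared with 82-kDa ChAT): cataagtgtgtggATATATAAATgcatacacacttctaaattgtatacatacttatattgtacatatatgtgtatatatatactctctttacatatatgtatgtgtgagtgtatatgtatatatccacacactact

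Further peaks are printed because they hold inverted repeats, in which a word and its reverse complement lie on 1 strand and can pair with each other. They were chosen after the sequences had been seen, as peaks with the longest arms of their lists, and both arms are in capitals. The peak on chromosome 11 lay in intron 6 of DLG2, which encodes a postsynaptic scaffold protein, and that on chromosome 12 lay 174 kb from TRHDE. That on chromosome 3 lay in the non-coding gene LINC02006. The arms had 30, 43 and 51 nt and lay within 9 nt of the edges of the peak.
chr11:84908763-84908893 (82-kDa ChAT, vehicle): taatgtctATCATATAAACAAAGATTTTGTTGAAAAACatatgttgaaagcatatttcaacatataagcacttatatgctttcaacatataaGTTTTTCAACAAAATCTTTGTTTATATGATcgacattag
chr12:72844971-72845091 (82-kDa ChAT, Aβ1–42): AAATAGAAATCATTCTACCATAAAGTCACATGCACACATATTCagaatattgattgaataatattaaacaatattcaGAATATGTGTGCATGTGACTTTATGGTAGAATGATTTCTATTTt
chr3:153749871-153750025 (SATB1, Aβ1–42): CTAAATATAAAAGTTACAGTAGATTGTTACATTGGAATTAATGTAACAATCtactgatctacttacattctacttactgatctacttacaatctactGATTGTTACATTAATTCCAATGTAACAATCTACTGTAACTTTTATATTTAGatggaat

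Some peaks of the first set held 1 long run of A or of T next to mixed sequence, as in the peak near SH2D6, where 17 T followed each other. In the peaks near GRIK2 and in CDH18 the longest run of A and T together had 17 nt and 10 nt, respectively. Both of these peaks also hold an inverted repeat, though in CDH18 its arms include alternating A and T.

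The share of AT-rich peaks was close to that of the genome for 82-kDa ChAT, somewhat lower for SATB1 after vehicle and far lower for SATB1 after Aβ1–42. For comparison, every window of the same length on the same chromosome was counted, with a start every 500 nt and no undetermined base. After vehicle, 12.6% of 82-kDa ChAT peaks were AT-rich (95% interval 11.9 to 13.4) against 12.2% of the matching windows, a ratio of 1.03. After Aβ1–42 the share was 12.8% (12.01 to 13.7) against 14.1% of windows, a ratio of 0.911. For SATB1 it was 10.9% (9.79 to 12.1) against 13.0% after vehicle, a ratio of 0.842, and 2.75% (2.35 to 3.204) against 12.6% after Aβ1–42, a ratio of 0.219. Set against 82-kDa ChAT of the same treatment, the share for SATB1 differed by -1.70 points (-3.06 to -0.269) after vehicle and -10.1 points (-11.0 to -9.16) after Aβ1–42. The 82-kDa ChAT lists differed in share by 0.209 percentage points (Aβ1–42 minus vehicle, 95% interval -0.922 to 1.35), and the SATB1 lists by -8.17 points (-9.45 to -6.98). When peaks scoring below the list median were left out, the 82-kDa ChAT lists differed by 3.23 points (1.60 to 4.86), an interval that does not include 0. The matching windows then differed as well, with 11.8% after vehicle and 14.7% after Aβ1–42. The ratios to windows were 0.978 (0.891 to 1.07) and 1.01 (0.925 to 1.10), with intervals that included 1. The plot of G plus C by list shows that the SATB1 list after Aβ1–42 was set apart over its whole range, with a median of 51.9% over all of its peaks, where the other lists had medians between 40.4% and 41.4%.

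**Figure D1:**
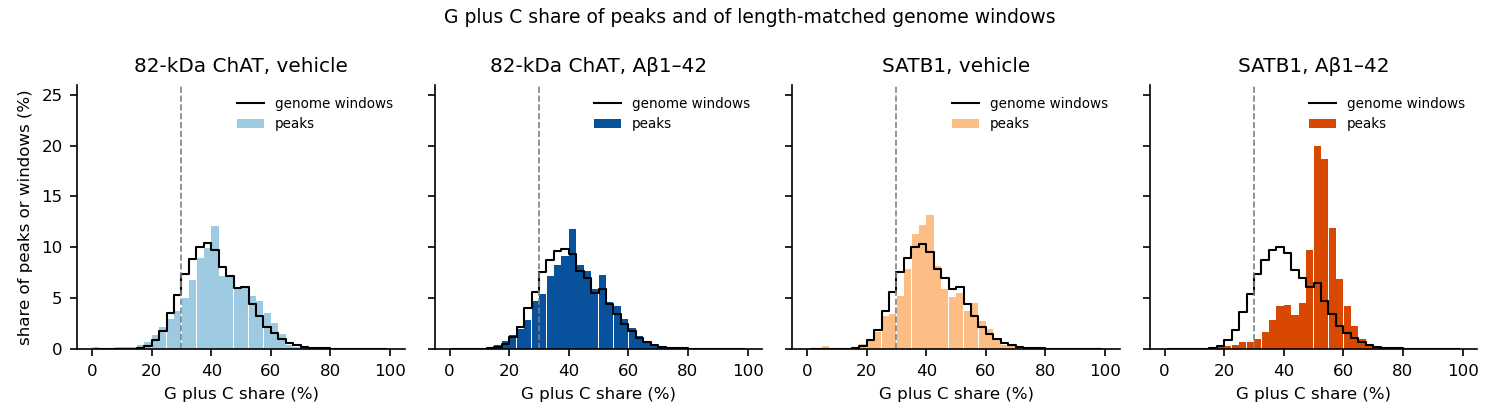
Share of peaks (bars) and of length-matched genome windows (black line) by G plus C share in bins of 2.5 percentage points, for each of the 4 lists; the dashed line marks 30%. The 82-kDa ChAT lists and the SATB1 list after vehicle lie close to the windows, whereas the SATB1 list after Aβ1–42 peaks just above 50%.

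The SATB1 list after Aβ1–42 held many peaks related to the Alu repeat. Of its 5817 peaks, 3680 matched the gene for 7SL RNA, from which Alu derives, and 5 of these were AT-rich. More AT-rich peaks, 12 of 160 (7.5%, 3.94 to 12.7), held a motif for the Alu tail, which was chosen after seeing the data. It was found in 0.396% of AT-rich windows and in 6.65% of the other peaks of the list. How many of these peaks matched 7SL was not counted. The 7SL-matching peaks were then removed, after the data had been seen. Without them, 155 of 2137 peaks were AT-rich (7.25%), against 303 of 2674 (11.3%) after vehicle. The difference was -4.08 points (-5.70 to -2.43). The number of AT-rich SATB1 peaks was also lower after Aβ1–42, with 160 against 305, although the list was longer.

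At lower limits of G plus C the ratio to windows rose in each list. A share of 25% or less was found in 6.09% of 82-kDa ChAT peaks after vehicle against 3.40% of windows, a ratio of 1.79. The corresponding ratios were 1.198 for 82-kDa ChAT after Aβ1–42, 1.19 for SATB1 after vehicle and 0.415 for SATB1 after Aβ1–42. At 20% or less there were 163, 117, 42 and 39 peaks in the same order. The 82-kDa ChAT lists were thus near the genome at 30% and above it at 25%. Just inside the limit of 30% were peaks of exactly that share with scores of 130.74 (82-kDa ChAT, vehicle) and 89.47 (82-kDa ChAT, Aβ1–42), and just outside it a peak in DNER with 30.1% G plus C and a score of 53.76, so that the limit fell in a continuous range.

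AT-rich peaks were short. Their median lengths were 118, 95, 115 and 101 nt for 82-kDa ChAT (vehicle, Aβ1–42) and SATB1 (vehicle, Aβ1–42), against 139, 112, 131 and 135 nt for the other peaks of the same lists. Among peaks under 75 nt the AT-rich share was 25.5%, 19.4%, 27.3% and 18.4%, against 16.3%, 16.9%, 16.6% and 16.9% of windows of the same lengths. The interval lay above the windows in each list but SATB1 after Aβ1–42 (13.2 to 24.5). Among peaks of 150 nt or more it was 6.19%, 5.87%, 4.55% and 0.732%, below the windows in each list (9.40%, 9.60%, 9.97% and 10.8%).

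The score of a peak, which in the deposited lists rises as its p-value falls (-10 times log10 of p), had a similar median in AT-rich and other peaks. The medians were 65.1 and 65.8 for 82-kDa ChAT after vehicle, 66.3 and 63.2 for 82-kDa ChAT after Aβ1–42, 67.3 and 65.8 for SATB1 after vehicle, and 71.7 and 66.4 for SATB1 after Aβ1–42. Many AT-rich peaks shared 1 value, for example 97 of the 889 peaks of 82-kDa ChAT after vehicle with 53.93. Among the best-scoring peaks of each list (705, 685, 294 and 583 peaks, the highest 10% by score with ties), AT-rich peaks made up 9.36% of 82-kDa ChAT peaks after vehicle and 18.7% after Aβ1–42, and 16.7% and 7.89% of SATB1 peaks. The matching windows were at 9.33%, 15.1%, 13.1% and 12.9%, and the interval lay above the windows for 82-kDa ChAT after Aβ1–42 (15.8 to 21.8), below them for SATB1 after Aβ1–42 (5.83 to 10.4) and included them in the other lists. Over all peaks of the lists the AT-rich share was 12.6%, 12.8%, 10.9% and 2.75%. The interval of the best-scoring peaks lay above this for 82-kDa ChAT after Aβ1–42 and for SATB1 after vehicle (12.6 to 21.4) and after Aβ1–42. For 82-kDa ChAT after vehicle it lay below (7.31 to 11.8).

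The low G plus C of AT-rich peaks, which the rule fixes, did not extend far beyond them. In the 50 nt on either side of the middle, mean G plus C was 24.7% and 24.5% for 82-kDa ChAT after vehicle, and it was back at 37.5% at 125 nt before the middle. The 300 nt on each side of the peak averaged 38.3% ± 7.72, 37.7% ± 7.18, 37.6% ± 6.67 and 40.7% ± 7.26 in the 4 lists (SD over 887, 807, 303 and 160 peaks). Over 10 kb the means were 39.04%, 38.3%, 38.3% and 39.8%, against 37.5% to 37.6% around AT-rich windows and 41.7% to 43.0% around the other peaks. The surroundings of AT-rich peaks were thus nearer to those of AT-rich windows than to those of the other peaks in each list.

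**Figure D2:**
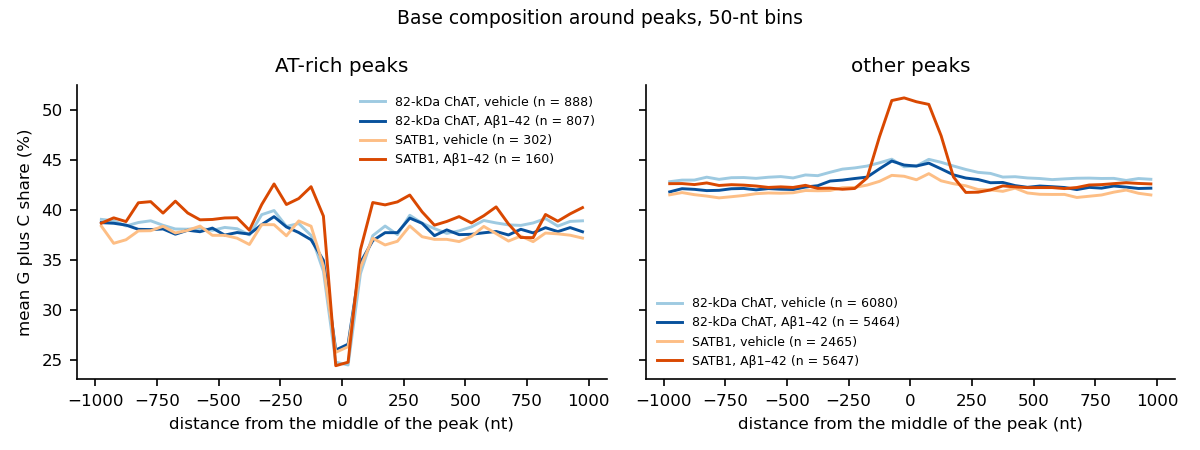
Mean G plus C share in 50-nt bins against the distance from the middle of the peak, for AT-rich peaks (left) and other peaks (right) of the 4 lists. AT-rich peaks fall to between 24.4% and 26.5% in the central bins and are at 36.9% or more 125 nt away, and in the SATB1 list after Aβ1–42 the other peaks rise to 51.3%.

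Most short A and T motifs that are used to predict matrix attachment regions were less frequent in AT-rich peaks than in AT-rich windows of the same length, while repeats and runs were more frequent. The origin-of-replication type ATTA was found on either strand in 66.8% (63.6 to 69.9), 70.0% (66.7 to 73.2), 74.8% (69.5 to 79.5) and 56.9% (48.8 to 64.7) of AT-rich peaks, in the order of lists above, and in 89.7%, 85.6%, 89.0% and 87.2% of AT-rich windows. The longer ATTTA and ATTTTA and the curved type TTTAAA lay below the windows in each list, at 48.4%, 48.1%, 55.1% and 48.1% for ATTTA against 63.2% to 69.7%. A SATB1 type motif, C with 3 A or T on each side, was present in 91.8%, 93.2%, 93.8% and 91.3% of AT-rich peaks and in 95.8% to 97.5% of windows. It was therefore nearly universal in any AT-rich sequence of this length, and among the other peaks it was found in 60.3% to 69.3%. The recognition type, AATAATAA or AATAACAA, occurred in 7.65%, 5.08%, 6.56% and 2.5% of AT-rich peaks against 9.35%, 7.66%, 8.70% and 8.02% of windows, and TGTTTTG in 4.05%, 4.09%, 6.23% and 3.75% against 5.86%, 4.65%, 5.37% and 4.89%.

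Features linked to base unpairing went the other way. For motifs and inverted repeats, however, windows were matched in length and chromosome but not in G plus C below 30%, where AT-rich peaks reached lower. In 82-kDa ChAT after vehicle, 429 of 889 AT-rich peaks had 25% or less. Of all matching windows 3.40% did, where 12.2% had 30% or less. How far the shares below follow from this was not tested. The unpairing core ATATAT was found in 41.2% (37.9 to 44.5) and 31.8% (28.6 to 35.2) of the AT-rich 82-kDa ChAT peaks and in 43.8% (35.9 to 51.8) of those of SATB1 after Aβ1–42, against 17.7% to 21.3% of windows. In SATB1 after vehicle it was found in 22.3% (17.7 to 27.4) against 20.1%. A run of at least 40 nt with no G on 1 strand, the feature for which SATB1 is known, was present in 30.1%, 21.8%, 27.2% and 35% of AT-rich peaks and in 14.3%, 11.2%, 13.2% and 11.9% of AT-rich windows. Among the other peaks it was present in 15.7%, 8.99%, 10.4% and 4.01%. Long runs of A or of T and long alternating A and T also count as such a run.

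Simple repeats were added to the motifs after the data had been seen. A run of at least 10 A or 10 T was found in 15.5% and 16.5% of the AT-rich 82-kDa ChAT peaks and in 31.1% and 30.6% of those of SATB1, against 5.27% to 5.79% of AT-rich windows. The longest such run had 69 nt. Alternating A and T of at least 12 nt was found in 11.9%, 7.06%, 3.93% and 17.5%, against 1.12% to 1.39%. Alternating T and G of the same length was found in 7.76%, 4.83%, 2.30% and 5.00%, against 0.343% to 0.484%. The motif for the Alu tail was found in 2.36%, 2.11%, 0.656% and 7.5% of AT-rich peaks, against 0.391% to 0.417% of AT-rich windows. For SATB1 after vehicle the interval (0.0795 to 2.35) included the windows. Single-base runs were thus more frequent in the SATB1 lists (25.99 to 36.7 and 23.6 to 38.4) than in those of 82-kDa ChAT (13.2 to 18.1 and 14.0 to 19.2).

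**Figure D3:**
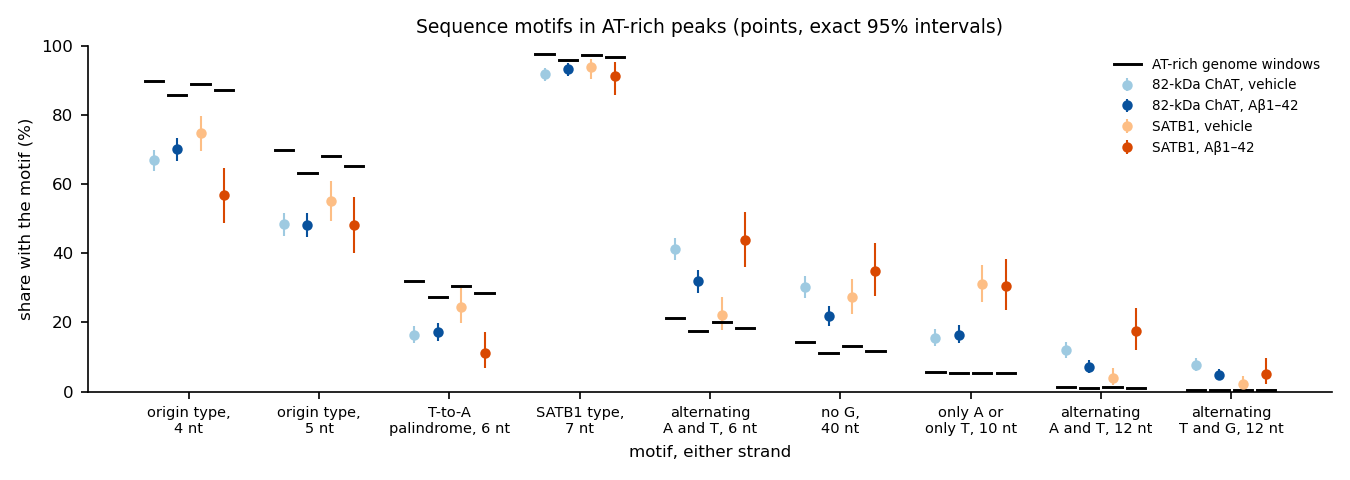
Share of AT-rich peaks with each motif on either strand (points with exact 95% intervals, 1 colour for each list) and share of AT-rich genome windows of the same lengths (black bars). Origin type and palindrome motifs lie below the windows, whereas alternating bases, G-free stretches and single-base runs lie above them, except the 6-nt alternating motif in SATB1 after vehicle.

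AT-rich peaks held inverted repeats more often than AT-rich windows or other peaks did, as in the examples from DLG2 and LINC02006 above. This was looked for after the sequences had been seen. An inverted repeat was counted if both exact arms had 12 nt or more, at least 3 G or C and no alternating A and T of 6 nt or more, in peaks of up to 300 nt (2139 of the 2161 AT-rich peaks). Such a repeat was found in 204 of 868 AT-rich peaks of 82-kDa ChAT after vehicle (23.5%, 20.7 to 26.5), in 103 of 807 after Aβ1–42 (12.8%, 10.5 to 15.3), in 14 of 304 AT-rich peaks of SATB1 after vehicle (4.61%, 2.54 to 7.61) and in 36 of 160 after Aβ1–42 (22.5%, 16.3 to 29.8). In AT-rich windows of the same lengths, up to 40 for each length and chromosome at even spacing, the shares were 0.291%, 0.239%, 0.214% and 0.250%. Among the other peaks of the lists they were 7.19%, 5.66%, 1.59% and 2.60%, and the difference from AT-rich peaks was 16.3 points (13.5 to 19.3), 7.10 points (4.88 to 9.65), 3.02 points (1.08 to 6.03) and 19.9 points (14.1 to 26.98). After vehicle 82-kDa ChAT had the higher share of the proteins, and after Aβ1–42 SATB1 did.

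The arms often lay near the ends of the peak. The median distance from the start of the peak to the left arm was 7, 5, 2 and 5 nt, and from the right arm to the end 6, 5, 3.5 and 9.5 nt, with a median arm of 13.5 to 15 nt and a median spacer of 52.5 to 69.5 nt. Both arms lay within 20 nt of the edges in 116 of 204, 58 of 103, 10 of 14 and 21 of 36 peaks, and in 47.6%, 56.3%, 51.4% and 58.6% of the other peaks with such a repeat. Whether arms at the edges arose in the preparation of the libraries was not tested, and peak lists without reads cannot tell this apart from binding in the cells. The scores of these peaks were not higher than those of the other AT-rich peaks of up to 300 nt, with medians of 63.5 and 65.1, 61.4 and 66.3, 61.1 and 67.7, and 69.5 and 71.7. Across classes of G plus C the share was highest over 20% to 25% for 82-kDa ChAT (32.8% and 14.3%) and SATB1 after vehicle (8.75%), and over 25% to 30% for SATB1 after Aβ1–42 (30.3%). Over 30% to 35%, just outside the rule, it was 15.2%, 11.7%, 2.72% and 22.5% in the order of lists above. For SATB1 after Aβ1–42 this equalled the 22.5% of its AT-rich peaks, and for 82-kDa ChAT after Aβ1–42 it was near the 12.8% of its AT-rich peaks. Above 50% G plus C the share was 2.69%, 2.18%, 0.835% and 0.331%. The differences from the other peaks given above are thus differences from peaks of all higher G plus C shares.

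**Figure D4:**
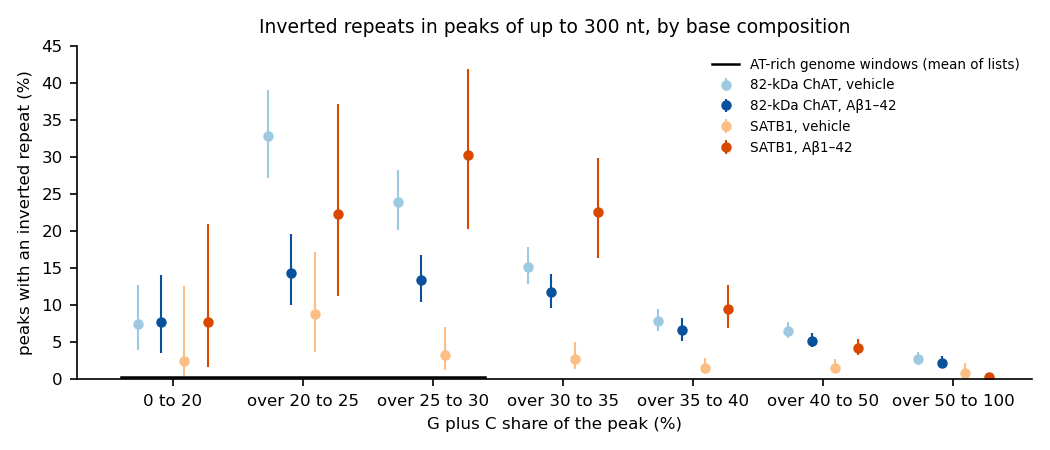
Share of peaks of up to 300 nt with an inverted repeat, by G plus C share of the peak (points with exact 95% intervals, 1 colour for each list) and mean share in AT-rich genome windows (black line). In each list the share is highest between 20% and 30% G plus C and lowest above 50%. Up to 30% the points lie above the windows, though the interval of SATB1 after vehicle at 20% or less includes them.

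The overlap between SATB1 and 82-kDa ChAT was then counted, with a shared stretch of at least 1 nt. After vehicle, 57 of 305 AT-rich SATB1 peaks overlapped a peak of 82-kDa ChAT (18.7%, 14.5 to 23.5), where 22.5% of all SATB1 peaks did. After Aβ1–42 this was true of 19 of 160 (11.9%, 7.30 to 17.9), where 3.54% of all SATB1 peaks did. AT-rich windows of the same lengths overlapped a peak of 82-kDa ChAT in 0.0427% and 0.0292% of cases. Counted from 82-kDa ChAT, 55 of 889 AT-rich peaks overlapped a SATB1 peak after vehicle (6.19%, against 9.13% of all peaks of that list) and 24 of 807 after Aβ1–42 (2.97%, against 3.4%).

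Set against the other SATB1 peaks, the overlap of AT-rich peaks with 82-kDa ChAT differed by -4.31 points after vehicle, with an interval that spans 0 (-8.63 to 0.709), and by 8.57 points after Aβ1–42 (4.40 to 14.5). The latter difference was not seen without multi-copy and 7SL-matching peaks, which were left out after the data had been seen. The overlap after Aβ1–42 was then 12.2% for AT-rich and 12.6% for other SATB1 peaks, a difference of -0.346 points (-5.18 to 6.195). A multi-copy peak was one with more than 50% of its words of 51 nt at further places of the genome. These places included sequences of the assembly other than chromosomes, so such a peak need not be a repeat. Such peaks made up 8.55%, 4.37%, 12.8% and 5.00% of the AT-rich peaks and 21.8%, 14.4%, 33.3% and 60.7% of the other peaks in the 4 lists.

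Of the 57 AT-rich SATB1 peaks with overlap after vehicle, 47 met an 82-kDa ChAT peak that was itself AT-rich, and after Aβ1–42 all 19 did. The shared stretch covered a median of 100% of the shorter peak, and both ends agreed within 20 nt in 23 of 57 (40.4%) and 11 of 19 cases (57.9%). Overlapping peaks thus held largely the same bases, and the G plus C of the 82-kDa ChAT peak was largely set by the rule. The other SATB1 peaks shared with 82-kDa ChAT were also nested, with medians of 100% and 99.1%, and both ends agreed in 30.4% and 29.4% of them. In CDH18, for example, the SATB1 peak of 136 nt had a score of 113 and the 82-kDa ChAT peak, 19914474 to 19914602, had a score of 92.3. At the peak near GRIK2 the scores were 133 and 97.9. Farther out there was little gain for AT-rich 82-kDa ChAT peaks: within 10 kb of one lay 48 instead of 47 AT-rich SATB1 peaks after vehicle, and 20 instead of 19 after Aβ1–42. Within 10 kb of any 82-kDa ChAT peak lay 69 instead of 57 AT-rich SATB1 peaks after vehicle, and 25 instead of 19 after Aβ1–42. Without peaks with a run of 10 A or T, 44 of 210 and 10 of 111 AT-rich SATB1 peaks overlapped 82-kDa ChAT.

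Among the shared AT-rich peaks of SATB1, an inverted repeat was present in 3 of 56 of up to 300 nt after vehicle and in 7 of 19 after Aβ1–42, against 11 of 248 and 29 of 141 of the peaks that were not shared. Because both lists of a treatment were called against the same input, what they share through the input and what they share through the proteins cannot be told apart.

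**Figure D5:**
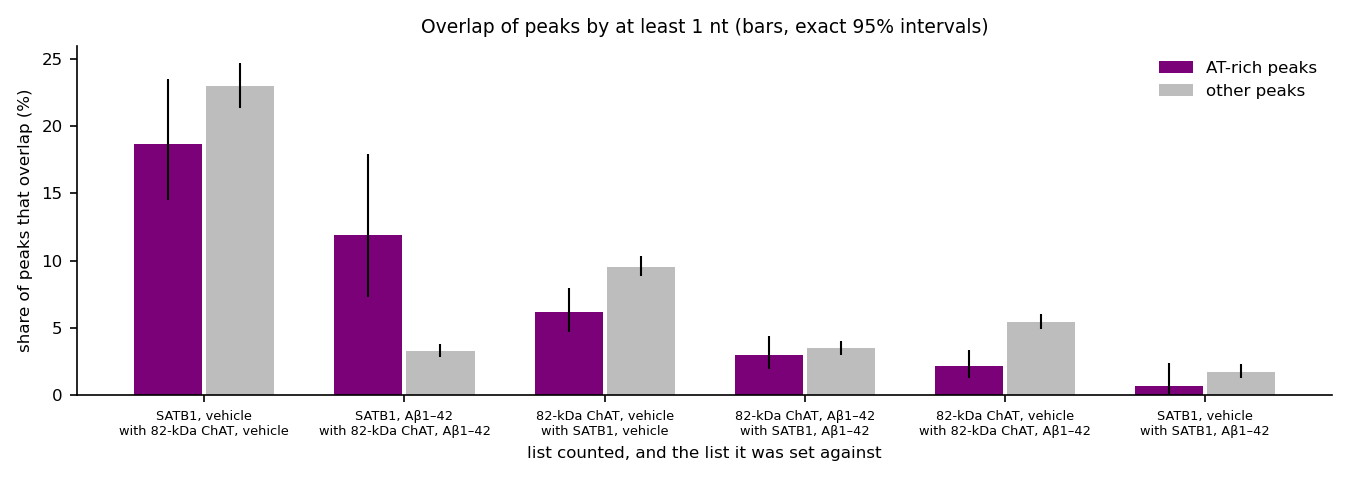
Share of peaks of 1 list that overlap another list by at least 1 nt, for AT-rich peaks (purple) and other peaks (grey), with exact 95% intervals; labels give the list counted and the list it was set against. AT-rich SATB1 peaks after Aβ1–42 overlap 82-kDa ChAT in 11.9% of cases against 3.31% of the other peaks (12.2% and 12.6% without multi-copy and 7SL-matching peaks), and between treatments the AT-rich shares of 82-kDa ChAT lie below those of the other peaks.

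Between treatments few AT-rich regions recurred. Of the AT-rich 82-kDa ChAT peaks after vehicle, 19 of 889 overlapped a peak found after Aβ1–42 (2.14%, 1.29 to 3.32), where 5.01% of all peaks of that list did, and from the other side 24 of 807 did (2.97%, 1.91 to 4.39), where 5.53% did. The difference from the other peaks was -3.29 points (-4.26 to -2.00) and -2.94 points (-4.10 to -1.40). An inverted repeat was present in 11 of the 19 recurring peaks counted from the vehicle list (57.9%, 33.5 to 79.7), against 193 of 849 others (22.7%), and in 9 of 24 counted from the Aβ1–42 list (37.5%, 18.8 to 59.4), against 94 of 783. For SATB1, 2 of 305 AT-rich peaks recurred (0.656%, 0.0795 to 2.35), where 1.61% of all peaks did, and 2 of 160 from the other side (1.25%, 0.152 to 4.44), where 0.722% did. Both of these had a run of at least 10 A or T. The region near SH2D6 printed above was among the few seen in both treatments: 82-kDa ChAT had a peak there after vehicle, with 31.5% G plus C and a score of 72.7, and one after Aβ1–42, with 25.8% and 163.

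AT-rich peaks lay mostly in introns and between genes. An intergenic position, with no base in a gene of GENCODE 44, was found for 350 of 889 AT-rich 82-kDa ChAT peaks after vehicle (39.4%, 36.1 to 42.7), where 47.1% of all peaks of the list were intergenic. After Aβ1–42 it was found for 317 of 807 (39.3%, against 42.1% of all). For SATB1 it was found for 139 of 305 after vehicle (45.6%, against 49% of all) and for 68 of 160 after Aβ1–42 (42.5%, against 39.7% of all). In AT-rich windows these shares were 40.02%, 40.1%, 40.6% and 39.4%, each within the interval of its list. Introns held 57.6%, 58.0%, 51.8% and 55.6% of AT-rich peaks, against 47.9%, 53.5%, 47.6% and 57.7% of the other peaks and 56.5% to 57.7% of AT-rich windows. For 82-kDa ChAT the difference from the other peaks was 9.70 points (6.19 to 13.1) after vehicle and 4.52 points (0.839 to 8.13) after Aβ1–42, and for SATB1 the intervals spanned 0. The 2000 nt before a transcription start held 4.39%, 3.59%, 6.23% and 6.25% of AT-rich peaks, against 7.02%, 8.21%, 6.43% and 8.89% of the other peaks. The difference was -2.63 points (-3.97 to -0.962) and -4.61 points (-5.93 to -2.94) for 82-kDa ChAT, again with intervals that spanned 0 for SATB1. For 82-kDa ChAT after Aβ1–42 the promoter share (2.42 to 5.12) was also below the 5.31% of AT-rich windows. Coding exons were met by 3, 5, 1 and 1 AT-rich peaks.

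Of 19970 protein-coding genes, 797 (3.99%) held at least 1 AT-rich peak of any list. Peaks were counted in each list, so a region called in several lists counts several times. The most were found in CDH18 and DLG2, with 5 each. In CDH18, 82-kDa ChAT had 1 and 2 peaks (vehicle, Aβ1–42) and SATB1 1 and 1, and in DLG2 the counts were 3, 1, 0 and 1. CNBD1, DMD, which encodes dystrophin, EYS, a protein of photoreceptors, and GPC6, a glypican of the cell surface, had 4 each. With 3 each followed AGBL4, CNTNAP5, HPSE2, LRP1B, a lipoprotein receptor family member, MAGI2, a synaptic scaffold protein, MAN1A2, OR4N2, PCDH11X, a protocadherin, PIEZO2, a mechanically gated channel, RBMS3, ROBO2, a receptor for the axon guidance protein Slit, SORCS3, a sorting receptor, SOX6, a transcription factor, and ZNF618. In MAN1A2 all 3 were from 82-kDa ChAT after Aβ1–42, and in HPSE2 and MAGI2 all 3 were from 82-kDa ChAT after vehicle, whereas the others drew on 2 or more lists. The genes were ranked by count, without regard to their length. For every 1000 AT-rich windows of 110 nt, CDH18 held 6.90 peaks, DLG2 5.70, DMD 3.90, EYS 3.27 and LRP1B 2.54, against 2.41 over the genome. Peaks of different lists were not always separate sites. In ZNF618 all 3 lay between 113891755 and 113891943 on chromosome 9, and in CDH18 a SATB1 and an 82-kDa ChAT peak after Aβ1–42 overlapped.

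Because long genes hold many AT-rich windows, gene lists were compared by the number of peaks per window. Over the genome there were 2.41 AT-rich peaks for every 1000 AT-rich windows of 110 nt, over all protein-coding genes 2.39 (2.24 to 2.54), and over the 322 genes of 500 kb or more 2.22 (1.94 to 2.53), although 45.3% of the latter held a peak. Among synaptic adhesion genes 14 of 50 held 20 AT-rich peaks, a rate of 1.68 (1.03 to 2.60), with 3 in CNTNAP5, of the neurexin family, and 2 each in the contactin CNTN5, the neurexin NRXN3 and the teneurins TENM1 and TENM2. Among cadherin and protocadherin genes 8 of 35 held 16 peaks, a rate of 3.02 (1.72 to 4.90), with 5 in CDH18, 3 in PCDH11X and 2 each in CDH12 and CDH8. Of 44 glutamate and GABA receptor genes 7 held 1 peak each, a rate of 1.34 (0.541 to 2.77), among them the AMPA receptor subunit GRIA4 and the delta receptor subunit GRID1. Of 46 axon guidance genes 5 held 7 peaks, a rate of 1.22 (0.492 to 2.52), namely ROBO2 with 3 and the netrin receptor gene DCC, ROBO1, SLIT2 and UNC5D with 1 each. Of 24 very long genes at known fragile sites 16 held 32 peaks, a rate of 1.99 (1.36 to 2.803), with 5 in DLG2, 4 in DMD, 3 in LRP1B and 3 in MAGI2. The intervals of all 5 lists and of the genes of 500 kb or more included the rate of the genome. They treat each peak as independent, although a region called in several lists counts several times.

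The median distance from 1 to the next was 1990 kb and 2325 kb for 82-kDa ChAT (vehicle, Aβ1–42) and 5616 kb and 11641 kb for SATB1. The quartiles ran from 782 to 4372 kb in the first of these lists and from 3894 to 20353 kb in the last. Within each list, 4 of 866, 3 of 784, 1 of 282 and 0 of 137 successive peaks lay within 10 kb of each other (0.462%, 0.383%, 0.355% and 0, the last with an upper bound of 2.66%), whereas 18.8%, 5.49%, 6.17% and 4.28% of the other peaks did. The sets differ in number, however, and at an even rate over the genome 0.311%, 0.285%, 0.114% and 0.0668% of AT-rich peaks and 2.06%, 1.84%, 0.835% and 1.90% of the other peaks would lie that close. The shares of AT-rich peaks had intervals that included their even rate, and those of the other peaks lay above theirs. With all lists together, and a gap of at most 10 kb, there were 1924 single AT-rich peaks, 114 pairs and 3 groups of 3. Many of these were 1 region called in 2 lists rather than neighbouring sites. AT-rich peaks of SATB1 overlapped AT-rich peaks of 82-kDa ChAT in 47 cases after vehicle and 19 after Aβ1–42. Between treatments, 18 AT-rich 82-kDa ChAT peaks of the vehicle list overlapped an AT-rich one after Aβ1–42. The groups of 3 lay in EGFEM1P, in ZNF618 and at chromosome 7, 6282617 to 6282783, the last 2 of them with peaks of both proteins after Aβ1–42.

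Shares by chromosome rest on few peaks and have no intervals, and those named are examples. For 82-kDa ChAT after vehicle the AT-rich share was above that of the windows on some chromosomes, such as X (57 of 266, 21.4% against 14.1%) and 3 (62 of 348, 17.8% against 14.6%). It was below it on others, such as 7 (63 of 577, 10.9% against 13.7%). SATB1 after vehicle was also above the windows on chromosome 3 (32 of 159, 20.1% against 15.5%). On chromosome 19, which has few AT-rich windows, the shares for 82-kDa ChAT were 13.3% (22 of 165) and 9.47% (16 of 169), against 4.44% and 5.64% of windows. For SATB1 they were 14.3% (7 of 49) and 0.368% (1 of 272), against 4.60% and 4.46%.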

How the data were processed

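ChIP-seq peak lists were analysed for 4 libraries of SH-SY5Y cells, 82-kDa ChAT and SATB1 after vehicle or Aβ1–42. The 2 input libraries have no peak lists here. The authors mapped reads to hg38 with BWA and repeat-masking and used MACS to find peaks in each library relative to the input of its treatment, removing those also present in that input. Versions are not given in the sources used here. The deposited lists give position and a score, on the scale of -10 times log10 of p (at least 50.01), which is not normalised between libraries. The read depth of each library is not in the files. The members, gene lists and motifs were chosen with earlier results of these data known.

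Sequences were read from hg38 and features from GENCODE 44, with intron numbers of MANE Select transcripts. Windows started every 500 nt. The inverted repeats, the repeat motifs and the 7SL and multi-copy filters were chosen after seeing the data. Intervals for shares are exact Clopper-Pearson intervals at 95%, for differences Newcombe intervals, and for rates exact Poisson intervals. Named were the 20 genes with the most AT-rich peaks (ties in alphabetical order), up to 4 with the most peaks in each gene list (TENM2 and UNC5D, tied with the last of these, were added after their values were seen), up to 8 shared peaks with the highest SATB1 score for each treatment, the 3 highest scores and 2 lowest G plus C shares of each list, and the peaks next to the limit. Sequences of chromosome 8 are not printed, and some items that this rule names are not reported here. Python 3.11.15, numpy 2.4.6, pandas 2.3.3, scipy 1.17.1, statsmodels 0.14.6, numba 0.67.0, pysam 0.24.0, samtools 1.23.1 and blastn 2.17.0+ were used, and the window counts and the search for inverted repeats were tested on simulated data.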

Additional observations from a re-analysis of the deposited data

Results flagged for a closer look

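Without regard to peak length, the change of the AT-rich share after Aβ1–42 had opposite signs for the 2 proteins. It was 0.209 percentage points for 82-kDa ChAT, with an interval that spans 0, and -8.17 points for SATB1. Relative to windows of the same lengths, the ratio was lower after Aβ1–42 for both. It went from 1.03 to 0.911 for 82-kDa ChAT and from 0.842 to 0.219 for SATB1. For scores at or above the median, the change for 82-kDa ChAT was 3.23 points (1.60 to 4.86), with ratios of 0.978 and 1.01 whose intervals included 1. With 1 library for each, the difference between the proteins was not tested. AT-rich peaks were also found on sequences of the assembly other than chromosomes, which the rule leaves out. They were 19 of 810 peaks of 82-kDa ChAT after vehicle, 14 of 218 after Aβ1–42, and 8 of 181 of SATB1 after vehicle. These counts were above the 3 that a count of 0 allows. Their shares were 2.35% (1.42 to 3.64), 6.42% (3.56 to 10.5) and 4.42% (1.93 to 8.52). They lay below the 12.6%, 12.8% and 10.9% of the same lists under the rule. For SATB1 after Aβ1–42 it was 3 of 198 (1.52%, 0.314 to 4.36), with an interval that included the 2.75% under the rule.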

How the results depend on the processing

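Of 100 alternatives listed at the outset 84 were run, and 56 of these stayed within the 95% interval of the reported value. The ratio for 82-kDa ChAT after vehicle, whose interval includes 1, lay on either side of 1. The ratio to windows for 82-kDa ChAT after vehicle was 1.79 at a limit of 25%, 0.857 at 35%, 0.959 for peaks of at least 100 nt and 0.694 for 300 nt centred on the peak, and, chosen after seeing the data, 1.15 without multi-copy peaks and 0.923 without peaks with an A or T run. For 82-kDa ChAT after Aβ1–42 it rose above 1 at 25% (1.198, 1.08 to 1.33). For scores at or above the median it was 1.01, with an interval that included 1 (0.925 to 1.10). It was 0.836 at 35%, 0.794 for at least 100 nt, 0.631 for 300 nt, 0.978 without 7SL-matching peaks, 0.994 without multi-copy peaks and 0.812 without runs. For SATB1 after vehicle it was 1.19 at 25% (0.992 to 1.41) and 1.03 without multi-copy peaks (0.915 to 1.15), both with intervals that included 1. It was 0.729 for at least 100 nt, 0.538 for 300 nt and 0.644 without runs. For SATB1 after Aβ1–42 it was 0.415, 0.260 for high scores, 0.135, 0.115, 0.566 without 7SL-matching peaks, 0.503 without multi-copy peaks and 0.168 without runs, below 1 in each. The cause was not tested.

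The change for 82-kDa ChAT was 3.23 points with high scores (1.60 to 4.86, which does not include 0) and between -0.880 and 0.922 otherwise, with either sign. That for SATB1 was -2.96 at 25%, -18.6 at 35%, -3.96 for 300 nt, -4.08 without 7SL-matching peaks and -6.17 without runs, and kept its sign in all alternatives run. The shares of SATB1 peaks that overlap 82-kDa ChAT moved within their intervals, between 9.01% and 21.5%. With protein-coding genes only, the intergenic shares were 59.1%, 56.6%, 64.3% and 56.9%, and with high scores the median distances were 4366, 3745, 8654 and 17758 kb, both as fewer features remain. The share with an inverted repeat was 45.4%, 29.6%, 12.5% and 55.0% with any exact arm, 31.5%, 19.3% and 33.1% with alternating A and T allowed (SATB1 after vehicle stayed within its interval), and 13.0%, 6.57%, 1.64% and 13.1% with arms of 15 nt or more. No paired analysis was possible because each group is 1 library, and for the same reason no replicate could be left out. The alternatives that filter soft-masked repeats were not run because the genome used marks none.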
